A study of Mus musculus with 13 samples.

Results

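The Hox genes of the mouse were followed from haemangioblast-stage Flk-1+ cells to haemogenic endothelium in wild-type (WT), Lmo2-/- and Tal1-/- cells. They were taken as every row of the expression table that carries a gene name of the form Hox, a cluster letter from a to d, and a paralogue number. This found 39 Hox genes in 35 of the 45250 rows. 31 rows hold 1 Hox gene and 4 rows join 2 Hox genes under a single value (Hoxa2/Hoxa3, Hoxc5/Hoxc10, Hoxd3/Hoxd4 and Hoxd10/Hoxd11), so the members of those pairs cannot be told apart.

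Hox genes encode homeodomain transcription factors that give cells their position along the axis from head to tail. In the mouse they lie in 4 clusters, Hoxa on chromosome 6, Hoxb on chromosome 11, Hoxc on chromosome 15 and Hoxd on chromosome 2, and genes with the same paralogue number in different clusters are the most alike. Within a cluster, genes with low (anterior) numbers are switched on first and furthest forward in the embryo, and genes with high (posterior) numbers later and further back. Hox proteins bind DNA together with TALE homeodomain cofactors of the Pbx, Meis and Pknox families, and several of them, among them Hoxb4 and the Hoxa9 group, are known for their roles in blood progenitors. Below, numbers 1 to 3 are called anterior, 4 to 8 central and 9 to 13 posterior, and a joined row is counted under its lower number.

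Expression was measured by RNAseq in 13 libraries from 5 groups. Flk-1+ cells, selected on magnetic columns from embryoid bodies, gave 3 libraries each from WT, Lmo2-/- and Tal1-/- ES cells, and HE1, the Tie2+, Kit+ and CD41- fraction that Flk-1+ cells form in further culture with VEGF and IL-6, gave 2 libraries each from WT and Lmo2-/- cells. LMO2 and TAL1 are partners in a DNA-binding complex that is needed to form blood. Each genotype came from 1 named ES cell line (CCB for WT), kept on embryonic fibroblasts before differentiation, so an effect of the genotype and a difference between lines cannot be told apart. The study describes the libraries as biological replicates, and they are numbered here from 0 as in the column names.

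The values are FPKM, fragments scaled by transcript length and by a normalised library size, so levels can be set side by side between genes. For genes with 1 annotated transcript the low FPKM values fell on even steps, and the step size showed what 1 fragment was worth. On a kilobase of usable transcript this was between 0.138 and 0.355 FPKM in 12 libraries and 0.854 FPKM in Lmo2-/- HE1 replicate 1. This library therefore rests on the fewest fragments, 3.77 times fewer per FPKM than the median of the others. It holds 9694 genes above 0 against 11861 to 15641 in the others, and its FPKM values lie 2.15-fold above a common median over all libraries. It lists 191 genes at 0 that have a median above 10 FPKM over the 13 libraries, so an exact 0 in it need not mean that the gene was silent.

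Several markers followed the sort of the cells, but not all. Tek, Kit, Cdh5 and Pecam1, which mark haemogenic endothelium, rose from Flk-1+ cells to HE1 in both genotypes. Of the 4 haemangioblast markers, the mesoderm gene T was listed at 0 in all 4 HE1 libraries. Etv2 was called as lower in HE1 in Lmo2-/- alone and Pdgfra in WT alone. Kdr, the gene of Flk-1, read 252, 100 and 115 FPKM in WT Flk-1+ cells and 236 and 275 in WT HE1. Kdr was not called between the stages in either genotype. Runx1, also a marker of haemogenic endothelium, read 17.2, 10.8 and 8.15 FPKM in WT Flk-1+ cells and 5.91 and 5.42 in WT HE1. It was not called between the stages in either genotype. Itga2b, which encodes CD41, read 15.4 and 10.4 FPKM in WT HE1 and 19.8 and 0 in Lmo2-/- HE1, although HE1 is the CD41- fraction. Lmo2 read 22.8, 30.8 and 21.6 FPKM in the WT Flk-1+ libraries and 2.63, 6.48 and 2.17 in Lmo2-/- Flk-1+. In HE1 it did not separate the labels (4.3 and 20.6 FPKM in the libraries labelled WT, 6.42 and 0 in those labelled Lmo2-/-).

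The Hox genes were read at low levels in these cells, and some not at all. Of the 35 rows, 6 were listed at 0 in every library (Hoxa4, Hoxa6, Hoxb13, Hoxc11, Hoxc12 and Hoxd12) and 15 never reached 1 FPKM. 17 of the 35 rows reached 1 FPKM in at least 2 libraries and were tested, beside 13802 of all 45250 rows. They were 9 of the 10 Hoxb rows, 4 of the 7 Hoxd rows, 2 of the 10 Hoxa rows and 2 of the 8 Hoxc rows. By paralogue number these were 6 of the 7 anterior, 8 of the 14 central and 3 of the 14 posterior rows. 5 rows exceeded 10 FPKM anywhere, and outside Lmo2-/- HE1 replicate 1 only Hoxb1 did, so the whole family was read at low levels. Rows that lie within 1 shared locus in the table (15 of the 35, among them Hoxb5 with Hoxb6 and Hoxb2 with Hoxb3) may exchange reads.

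**Figure D1:**
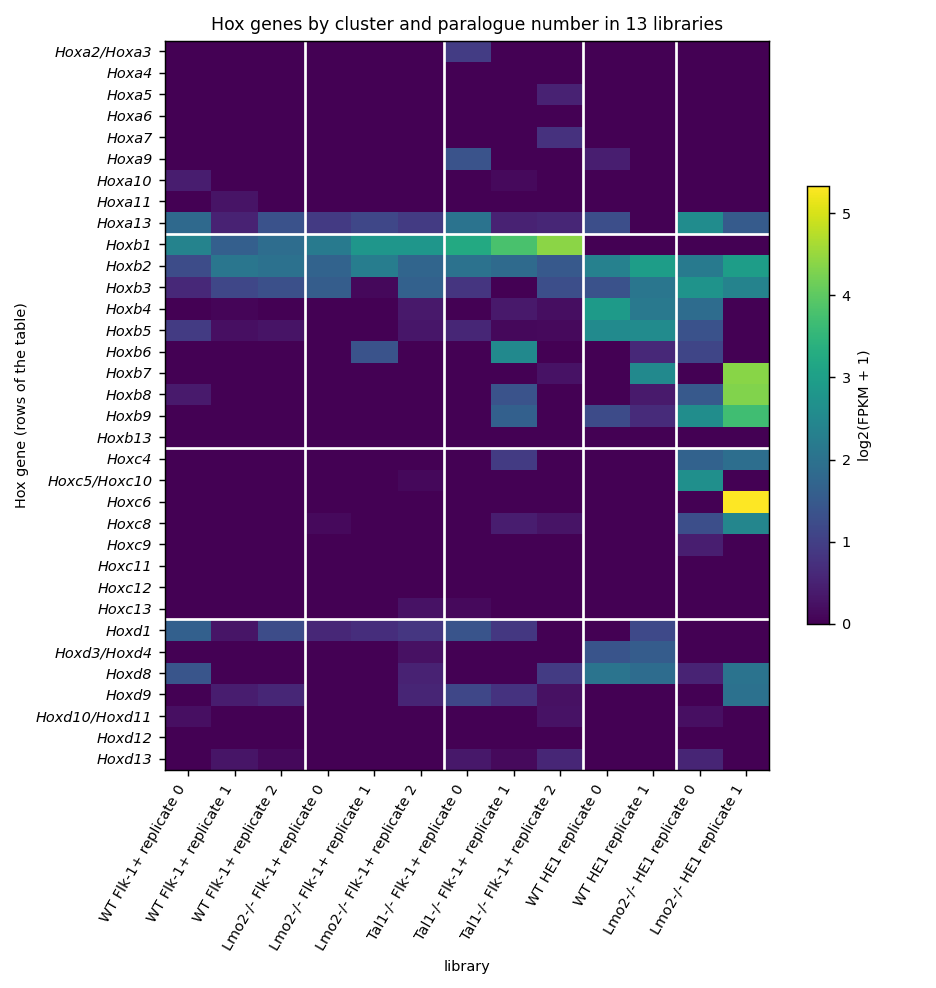
Each row is a Hox gene or joined pair that is reported here, ordered by cluster and paralogue number, each column a library, and the colour the level on the log2(FPKM + 1) scale, with white lines between clusters and groups. Hoxb1 is bright in the 9 Flk-1+ libraries and dark in the 4 HE1 libraries, while the Hoxc rows above 1 FPKM are those of the 2 Lmo2-/- HE1 libraries.

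Upstream sequences of 3 Hoxb genes whose levels moved between stages are shown because they lie along the cluster from its anterior to its central end, and because Hox clusters are regulated by Hox proteins with their cofactors and by Cdx factors. The sequences are those of RefSeq on GRCm38.p6, plus strand, and end at the base before the annotated transcript. 4 motifs were searched on both strands, and their matches are in capitals. The motif bound by Pbx with Hox proteins was TGATNNAT. That of the Cdx factors was TTTATG. The E-box, of the kind that TAL1 binds, was CAGATG. The motif of the blood-forming zinc finger family of which Gata1 is a member was GATAAG. None of the matches overlapped another, and the Gata motif was in none of the 3 windows.
Hoxb1, chr11:96365508-96365751: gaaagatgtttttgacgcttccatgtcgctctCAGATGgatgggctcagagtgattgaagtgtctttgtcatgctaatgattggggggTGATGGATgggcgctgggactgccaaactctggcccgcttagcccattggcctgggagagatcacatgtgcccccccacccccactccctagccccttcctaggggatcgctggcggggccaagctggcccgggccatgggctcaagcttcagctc
Hoxb4, chr11:96318017-96318266: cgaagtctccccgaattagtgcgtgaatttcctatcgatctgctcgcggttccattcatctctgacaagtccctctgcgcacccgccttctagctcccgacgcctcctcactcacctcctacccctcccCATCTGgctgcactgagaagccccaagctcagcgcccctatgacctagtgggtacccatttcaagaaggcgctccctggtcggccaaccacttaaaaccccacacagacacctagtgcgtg
Hoxb8, chr11:96281655-96281904: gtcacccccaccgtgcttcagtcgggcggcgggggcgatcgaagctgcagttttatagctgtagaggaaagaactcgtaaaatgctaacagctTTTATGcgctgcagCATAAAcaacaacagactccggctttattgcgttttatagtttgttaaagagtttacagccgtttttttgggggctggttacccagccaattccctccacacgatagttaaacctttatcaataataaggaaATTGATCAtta

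The Hoxb1 window held the Pbx-Hox motif 162 bases before the RefSeq start site and the E-box 218 bases before it. The Hoxb4 window held the E-box on the reverse strand and the Hoxb8 window held the Cdx motif once on each strand, 157 and 143 bases before the start, with a Pbx-Hox motif next to the transcript. Among all 32851 windows of 250 bases in the RefSeq table, 7.68 percent held the Pbx-Hox motif, 10.8 percent the Cdx motif, 14.4 percent the E-box and 6.55 percent the Gata motif. Among the 24 windows of the 22 Hox genes in that table these shares were 16.7, 20.8, 8.33 and 4.17 percent. A match describes the letters only.

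Hoxb1 had the highest mean of the Hox genes in Flk-1+ cells of every genotype, and it was the one with the smallest p between genotypes there. It is an anterior gene (chromosome 11, 96365752 to 96368256 on GRCm38) that is switched on early in the posterior mesoderm and directs hindbrain patterning. It read 4.19, 2.06 and 2.72 FPKM in the WT libraries, 3.55, 5.91 and 5.95 in Lmo2-/- and 8.36, 12.8 and 20.2 in Tal1-/-. Every Tal1-/- library lay above every other Flk-1+ library, and the WT and Lmo2-/- libraries overlapped. This gave a mean of 2.99 ± 1.09 for WT, 5.13 ± 1.37 for Lmo2-/- and 13.8 ± 5.98 for Tal1-/- (FPKM, SD, n = 3 libraries).

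On the log2(FPKM + 1) scale Hoxb1 was 1.84 higher in Tal1-/- than in WT (SE 0.43), with a limma p adjusted over all 13802 genes tested of 0.268. Against Lmo2-/- the difference was 1.22 (SE 0.43, limma adjusted p = 0.717), and between Lmo2-/- and WT it was 0.63 (SE 0.43, limma adjusted p = 1). The exact permutation test over libraries gave p = 0.1 for Tal1-/- against WT, two-sided, which is the smallest that 3 against 3 libraries allow. None of these passed the threshold of 0.05. For the longer of its 2 annotated transcripts the FPKM came to 36, 29 and 27 fragments in WT and 76.1, 105 and 211 in Tal1-/-, and for the shorter to 11.9, 9.56 and 8.89 against 25.1, 34.6 and 69.5.

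The question of these 3 comparisons, whether loss of Lmo2 or Tal1 changes Hox expression at the haemangioblast stage, gave no call. 0 of the 17 tested Hox rows passed limma at an adjusted p below 0.05 in Lmo2-/- against WT, in Tal1-/- against WT and in Tal1-/- against Lmo2-/-, where 0, 0 and 0.0145 percent of all genes tested were called. At an unadjusted p below 0.05 the counts were 0, 2 and 1, with Hoxb1 in the latter comparisons, beside 2.22, 6.11 and 5.96 percent of all genes tested. The median difference of the 17 rows was 0.00, 0.17 and 0.17, beside -0.01, -0.01 and 0.00 for all genes tested. Here and below, such medians describe the rows that passed the filter on low values.

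Other anterior genes were low in Flk-1+ cells. Hoxd1, a paralogue of Hoxb1, lay between 0 and 2.11 FPKM in Flk-1+ cells with overlapping genotypes.

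Hoxb2, an anterior gene that patterns the hindbrain together with Hoxb1, was the only Hox gene read above 1 FPKM in all 13 libraries. It was 2.53 ± 1.02 FPKM in WT, 2.78 ± 0.852 in Lmo2-/- and 2.47 ± 0.609 in Tal1-/- Flk-1+ cells (SD, n = 3 each), and the 3 ranges overlapped. In HE1 it read 4.05 and 6.77 FPKM in WT and 3.48 and 6.86 in Lmo2-/-. The differences between HE1 and Flk-1+ cells, 0.87 (SE 0.48) in WT and 0.67 (SE 0.48) in Lmo2-/- on the log2(FPKM + 1) scale, did not pass (limma adjusted p = 0.298 and 0.321).

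Central genes were low in Flk-1+ cells, and among the posterior genes Hoxa13 was read in all 9 libraries. The summed level of the central rows was between 0.104 and 2.85 FPKM in 8 of the 9 libraries and 7.97 FPKM in Tal1-/- replicate 1. That library alone among the Tal1-/- libraries held Hoxb6 (4.79 FPKM), Hoxb8 (1.56), Hoxb9 (2.12) and Hoxc4 (0.9), all listed at 0 in Tal1-/- replicates 0 and 2. Hoxa13, a posterior gene of the limb and hindgut, was read in 12 of the 13 libraries, between 0.421 and 3.07 FPKM in Flk-1+ cells, with overlapping genotypes.

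**Figure D2:**
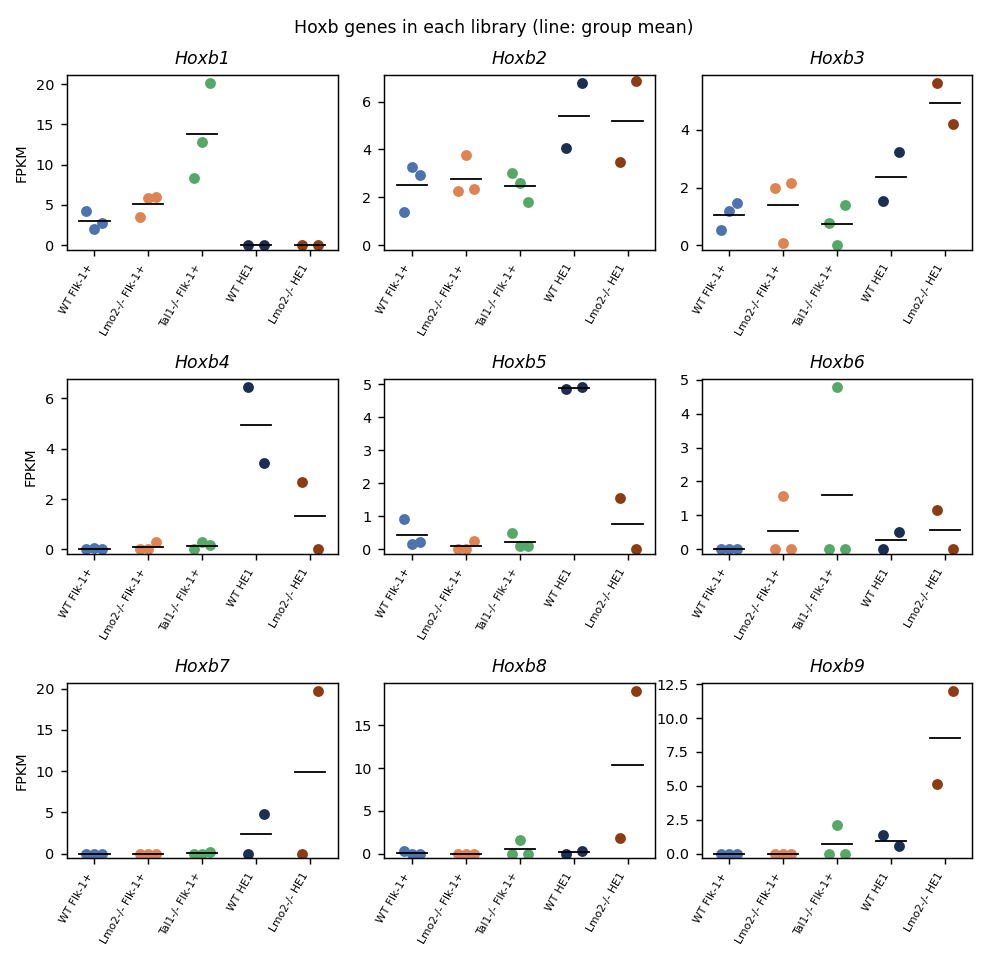
Each panel plots the FPKM of 1 Hoxb gene in every library (points) by group, with the group mean as a line; the vertical scales differ between panels. Hoxb1 is at 0 in all HE1 libraries, Hoxb4 and Hoxb5 are highest in WT HE1, and Hoxb8 and Hoxb9 are highest in Lmo2-/- HE1.

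From Flk-1+ cells to HE1, WT cells lost Hoxb1 and gained Hoxb4, Hoxb5 and the Hoxd3/Hoxd4 row. Hoxb1 went from 4.19, 2.06 and 2.72 FPKM to 0 in both HE1 libraries (limma adjusted p = 0.0212), and no fold is given against a group listed at 0. With this 1 of the 17 tested Hox rows fell, beside 2.16 percent of all genes tested, and 3 rose, beside 7.59 percent. The 17 rows had a median difference of 0.70 on the log2(FPKM + 1) scale and all genes tested 0.11. Rescaling all libraries to a common median moved the latter to -0.24 and the split of all calls from 1047 higher and 298 lower to 593 higher and 529 lower. Here and below, the median of the 17 rows is given without this rescaling, so it is not to be set against the rescaled value.

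Hoxb4 (chromosome 11, 96318267 to 96321638), a central gene best known for expanding blood stem cells when forced on, was the Hox gene with the largest called rise in WT. It read 0, 0.0571 and 0 FPKM in the WT Flk-1+ libraries and 6.46 and 3.43 FPKM in WT HE1. The gene has 1 annotated transcript and these values came out as 0, 1 and 0 fragments against 44.1 and 27. It rose by 2.50 on the log2(FPKM + 1) scale (SE 0.49, limma adjusted p = 0.00606).

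Hoxb5 (chromosome 11, 96303336 to 96306121), a central gene that marks long-term blood stem cells in the adult, rose alongside it. It read 0.904, 0.158 and 0.223 FPKM in WT Flk-1+ cells and 4.86 and 4.92 FPKM in WT HE1. The 2 HE1 libraries were almost alike and lay above all Flk-1+ libraries of any genotype. The rise was 2.08 on the log2(FPKM + 1) scale (SE 0.44, limma adjusted p = 0.00931).

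The Hoxd3/Hoxd4 row (chromosome 2, 74711927 to 74748442) was listed at 0 in the 3 WT Flk-1+ libraries and read 1.62 and 1.92 FPKM in WT HE1 (limma adjusted p = 0.0062). It passed the filter on low values only through those 2 libraries, so that it had to differ from the other groups. The same holds for the HE1 libraries in the cases of Hoxb4 and Hoxb5. Hoxd8, which lies beside it, read 3.15 and 2.67 FPKM in WT HE1 and 1.65, 0 and 0 in WT Flk-1+ cells, a difference that did not pass (limma adjusted p = 0.115).

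The exact permutation test cannot go below p = 0.2 with 3 against 2 libraries. The number of rows called changed with the WT HE1 library left out, which leaves 1 in that group. With 1 library of any group left out, the difference was 2.12 to 2.87 for Hoxb4, 1.95 to 2.31 for Hoxb5 and -2.14 to -1.75 for Hoxb1. The Hoxd3/Hoxd4 row left the test when 1 of the WT HE1 libraries was left out.

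From Flk-1+ cells to HE1, Lmo2-/- cells also lost Hoxb1, and the rows called as higher were Hoxb8, Hoxb9, Hoxc4 and Hoxc8. Hoxb1 went from 3.55, 5.91 and 5.95 FPKM to 0 in both libraries (limma adjusted p = 0.0023). 1 of 17 rows fell, beside 5.71 percent of all genes tested, and these 4 rose, beside 19.8 percent. The 17 rows had a median difference of 0.82 on the log2(FPKM + 1) scale and all genes tested 0.30. The latter moved to -0.34 at a common median, where calls over all genes were 802 higher and 1250 lower in place of 2736 and 788.

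Hoxb9 (chromosome 11, 96271457 to 96276595), a posterior gene that patterns the thoracic skeleton, was listed at 0 in all WT and Lmo2-/- Flk-1+ libraries. It read 5.1 and 12 FPKM in Lmo2-/- HE1 and 1.34 and 0.579 FPKM in WT HE1. With the shorter of its 2 annotated transcripts this came to 40 and 30 fragments against 8.02 and 4, so that the 2 Lmo2-/- libraries held similar numbers of fragments although their FPKM differed. Within Lmo2-/- its rise was called (limma adjusted p = 0.00112), and within WT the difference was 0.94 on the log2(FPKM + 1) scale (SE 0.52, limma adjusted p = 0.296).

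Hoxb8 (chromosome 11, 96281905 to 96285315), a central gene that can immortalise myeloid progenitors when forced on, was listed at 0 in the Lmo2-/- Flk-1+ libraries and read 1.79 and 19 FPKM in Lmo2-/- HE1. In WT it read 0.297, 0 and 0 FPKM in Flk-1+ cells and 0 and 0.309 in HE1. Both Lmo2-/- HE1 libraries lay above all WT and all Lmo2-/- Flk-1+ libraries, but by very different amounts, and the rise in Lmo2-/- had a limma adjusted p of 0.00711. Apart from Tal1-/- Flk-1+ replicate 1 these were the only libraries in which Hoxb8 reached 1 FPKM, so it passed the filter only through the group where it is high and had to differ. Hoxb8 was the only Hox row called that also had a mean above 10 FPKM in a group compared, a second call rule that 17.2 percent of all genes tested met as higher. Its mean of 10.4 FPKM rests on the 19 FPKM of replicate 1, whose values lie 2.15-fold above a common median.

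Hoxb7 and Hoxc6 were read almost only in 1 library each of a group. Hoxb7, the central neighbour of Hoxb8, read 0 and 19.7 FPKM in Lmo2-/- HE1 and 0 and 4.8 in WT HE1, and its difference within Lmo2-/- did not pass (limma adjusted p = 0.108). Hoxc6 read 39.1 FPKM in Lmo2-/- HE1 replicate 1, the highest value of any Hox row, and was listed at 0 in the other 12 libraries, so it was not tested. By its shortest and longest transcripts this is 18.2 to 66 fragments, and the authors' pooled value for Lmo2-/- HE1 was 4.05 FPKM.

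The Hoxc cluster as a whole was all but absent outside Lmo2-/- HE1. Its 8 rows summed to 9.29 and 46.3 FPKM in the 2 Lmo2-/- HE1 libraries, to 0 in both WT HE1 libraries and to at most 1.24 FPKM in any Flk-1+ library. Hoxc4, a central gene expressed in blood and lymphoid progenitors, read 2.21 and 2.78 FPKM in Lmo2-/- HE1 and 0.9 FPKM in Tal1-/- Flk-1+ replicate 1, and was listed at 0 elsewhere. Hoxc8, a central gene of the trunk, read 1.42 and 4.44 FPKM in Lmo2-/- HE1, 0.104 FPKM in Lmo2-/- Flk-1+ replicate 0, and 0.342 and 0.215 in Tal1-/- replicates 1 and 2. Both passed the filter only through the Lmo2-/- HE1 libraries, and their rise within Lmo2-/- was called (limma adjusted p = 0.00294 and 0.00376). The joined Hoxc5/Hoxc10 row read 5.29 and 0 FPKM there, so no other Hoxc row was read in both Lmo2-/- HE1 libraries.

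The number of rows called between the stages in Lmo2-/- changed without Lmo2-/- HE1 replicate 1, the library with the fewest fragments. This leaves 1 library in the group, and Hoxc4 and Hoxc8 then left the test. With 1 library of any group left out, the difference was 2.61 to 3.70 for Hoxb9, 1.48 to 4.32 for Hoxb8 and -2.79 to -2.49 for Hoxb1.

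Between the 2 genotypes in HE1, 3 of the 17 tested Hox rows were higher in Lmo2-/- (Hoxb9, Hoxc4 and Hoxc8), beside 2.88 percent of all genes tested. 2 were lower (Hoxb5 and Hoxd3/Hoxd4), beside 1.66 percent. The median difference was 0.25 for the 17 rows and 0.15 for all genes tested, which moved to -0.05 at a common median, with 175 calls higher and 180 lower over all genes in place of 397 and 229. Hoxb9 was 2.21 higher on the log2(FPKM + 1) scale (SE 0.57, limma adjusted p = 0.044), and its 2 libraries lay above both WT libraries. Hoxb5 read 1.55 and 0 FPKM in Lmo2-/- against 4.86 and 4.92 in WT, and was 1.88 lower (SE 0.48, limma adjusted p = 0.044). Hoxc4, Hoxc8 and the Hoxd3/Hoxd4 row were each listed at 0 in 1 of the 2 genotypes (limma adjusted p = 0.0198, 0.0212 and 0.0206). Each passed the filter on low values only through the 2 HE1 libraries of the other genotype, so it had to differ. Hoxb5 would not have passed the filter without the WT HE1 libraries. The counts of Hox rows called beside the shares of all genes carry this limit.

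Hoxb4 and Hoxb8 did not pass the threshold in this comparison. Hoxb4 read 2.68 and 0 FPKM in Lmo2-/- HE1, or 24 and 0 fragments, against 6.46 and 3.43 FPKM in WT, a difference of -1.58 (SE 0.54, limma adjusted p = 0.115). At the level of replicate 0, the thinner replicate 1 would have held 7.63 fragments of Hoxb4. Hoxb8 differed by 2.71 (SE 0.73, limma adjusted p = 0.0527). Hoxb3, an anterior gene, read 5.64 and 4.21 FPKM in Lmo2-/- against 1.52 and 3.23 in WT (limma adjusted p = 0.467).

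These calls rest on 2 libraries a group, and their number changed with the library left out. Leaving out 1 HE1 library leaves 1 in its group, so only sizes are given. With 1 library of any group left out, the difference was 1.67 to 2.76 for Hoxb9 and -2.56 to -1.21 for Hoxb5. Hoxc4, Hoxc8 and the Hoxd3/Hoxd4 row reached 1 FPKM in 2 libraries only. Without 1 of these the row left the test, so the loss of its call was fixed in advance. With 2 against 2 libraries the exact permutation test cannot go below p = 0.33.

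**Figure D3:**
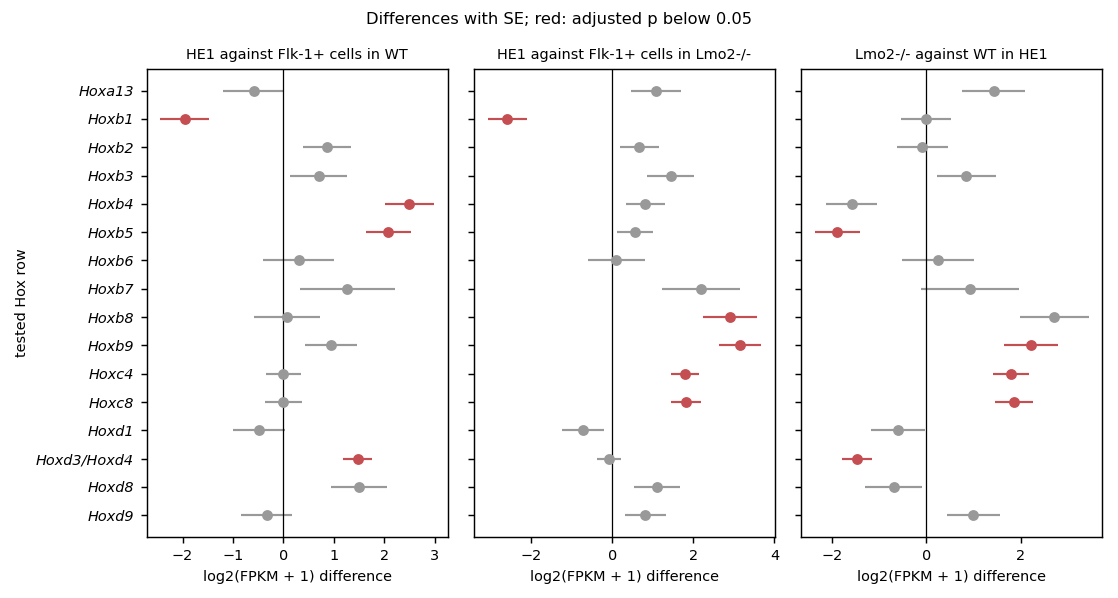
Points are differences on the log2(FPKM + 1) scale for the tested Hox rows that are reported here, lines their SE from the limma fit, and red marks an adjusted p below 0.05. Hoxb1 is lower in HE1 in both genotypes, Hoxb4 and Hoxb5 are called in WT, and Hoxb8, Hoxb9, Hoxc4 and Hoxc8 in Lmo2-/-; the size of a difference from a group listed at 0 depends on the added 1.

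An interaction term asked whether WT and Lmo2-/- cells differed in their step from Flk-1+ cells to HE1. It called 0 of the 17 Hox rows with limma, beside 0.464 percent of all genes tested. At an unadjusted p below 0.05 it held 8 rows, beside 12.1 percent. Among these the Hoxd3/Hoxd4 row, Hoxc4 and Hoxc8 passed the filter on low values only through the HE1 libraries of 1 genotype. Apart from Tal1-/- Flk-1+ replicate 1 this also holds for Hoxb8. Such rows had to differ here, so the count beside the share of all genes carries this limit. The smallest adjusted p values were 0.131 for the Hoxd3/Hoxd4 row, 0.147 for Hoxc4 and 0.166 for Hoxc8, followed by 0.233 for Hoxb9 and 0.234 for Hoxb8. A gene called in 1 genotype and not in the other is therefore not shown to differ between them. The number of rows called changed without Lmo2-/- HE1 replicate 0. This leaves only replicate 1, the library with the fewest fragments, in that group.

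Added up by paralogue number, the anterior rows carried most of the Hox signal in Flk-1+ cells. The central rows had a larger share in every HE1 library than in any Flk-1+ library. In the 9 Flk-1+ libraries the anterior rows made up 59.4 to 90.3 percent of the summed Hox FPKM and the central rows 1.05 to 25.8 percent. In HE1 the central share was 51.8 and 49.7 percent in WT and 41.6 and 75.9 percent in Lmo2-/-. The anterior share was 37.1 and 48.8 percent in WT HE1 and 30.2 and 9.57 percent in Lmo2-/- HE1. In Lmo2-/- HE1 replicate 0 the joined Hoxc5/Hoxc10 row, counted as central, gave 5.29 of the 16.5 FPKM of the central rows. The anterior rows summed to 12 FPKM there, so which class is largest depends on where this row is counted. The posterior share was 11.2 and 1.72 percent in WT HE1 and 28.2 and 14.6 percent in Lmo2-/- HE1.

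In FPKM, the central rows summed to 2.85, 0.215 and 0.223 in WT Flk-1+ cells and 14.5 and 16.7 in WT HE1. In Lmo2-/- they summed to 0.104, 1.58 and 1.04 in Flk-1+ cells and to 16.5 and 88.1 in HE1, where Hoxc6 alone gave 39.1 of the 88.1. The anterior rows summed to 8.62, 6.83 and 8.81 FPKM in WT Flk-1+ cells and to 10.4 and 16.4 in WT HE1. In Lmo2-/- they summed to 8.96, 12.2 and 12.5 in Flk-1+ cells and to 12 and 11.1 in HE1, so that the stages overlapped in Lmo2-/- but not in WT. This turned with the scale: at a common median the anterior sums were 8.96, 8.56 and 11.1 against 8.5 and 14.0 in WT, which overlapped, and 10.9, 13.7 and 15.2 against 8.96 and 5.14 in Lmo2-/-, which did not. Over all Hox rows the sum was 8.27 to 15.1 FPKM in WT and Lmo2-/- Flk-1+ cells, 23.1 to 30.9 in Tal1-/- Flk-1+ cells and 28 to 116 in HE1. These sums are a description with no test, and they follow the scale of a library: at a common median Lmo2-/- HE1 replicate 1 sums to 53.9 in place of 116.

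**Figure D4:**
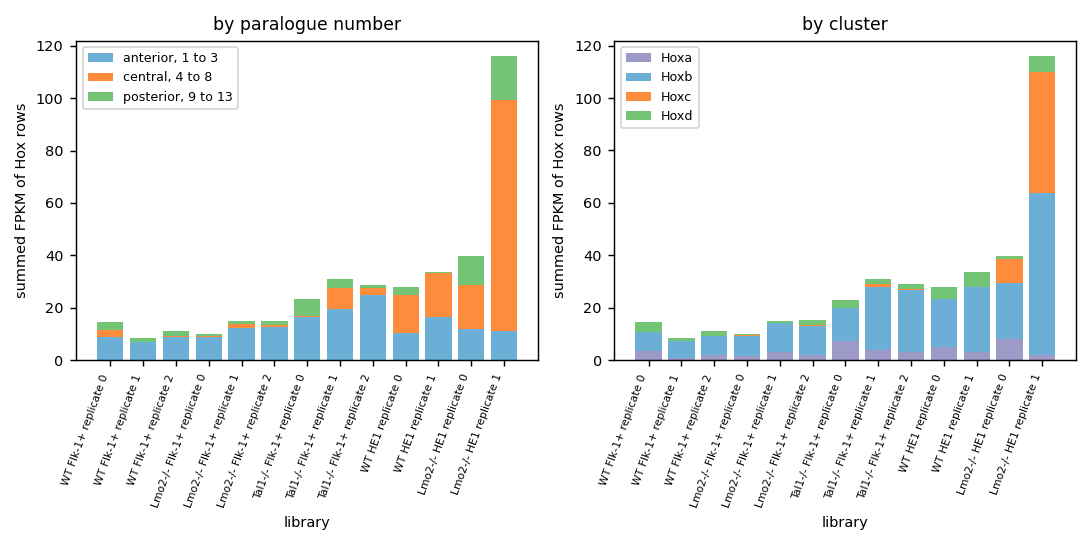
Bars give the summed FPKM of the Hox rows in each library, split on the left by paralogue number and on the right by cluster. The central part is larger in the HE1 than in the Flk-1+ libraries, the Hoxc part is seen in the 2 Lmo2-/- HE1 libraries, and Lmo2-/- HE1 replicate 1 reaches 116 FPKM.

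The genes that act with and on Hox genes were read from 3 lists. Of the 9 TALE cofactors, all tested, Pbx2, whose row also carries the name of its neighbour Gpsm3, lay between 18.4 and 51.9 FPKM in every library. Meis1, the cofactor best known beside Hox proteins in blood stem cells, rose from Flk-1+ cells to HE1 in both genotypes, from 1.66, 0.744 and 0.287 to 15.4 and 11.8 FPKM in WT and from 2.17, 2.54 and 3.05 to 7.09 and 14.4 in Lmo2-/-. The limma adjusted p was 0.00229 in WT and 0.0307 in Lmo2-/-. Meis2 also rose in Lmo2-/-, and Pknox2 was higher in Lmo2-/- than in WT HE1 (9.49 and 50.3 against 1.87 and 0.189 FPKM, limma adjusted p = 0.00873). No cofactor was called as lower in any comparison. Pbx3 came nearest, with 15.8 and 6.77 FPKM in Lmo2-/- HE1 against 20.7, 60.8 and 23.4 in Lmo2-/- Flk-1+ cells (limma adjusted p = 0.0595).

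Of the 8 regulators that act upstream, 6 were tested. Cdx2, a caudal homeobox factor that activates central and posterior Hox genes, read at most 0.369 FPKM in WT and 0.814 in Lmo2-/- Flk-1+ cells and 4.64, 4.03 and 5.53 FPKM in Tal1-/-. The Tal1-/- libraries lay above all others of the stage, with a difference from WT of 2.31 on the log2(FPKM + 1) scale (SE 0.48) that did not pass (limma adjusted p = 0.163). In HE1, Cdx2 read 0 and 0.291 FPKM in WT and 4.87 and 22.1 in Lmo2-/-, and was called as higher in Lmo2-/- than in WT HE1 (limma adjusted p = 0.00753) and than in Lmo2-/- Flk-1+ cells (limma adjusted p = 0.00267). Cdx4, of the same family, was at most 1.95 FPKM in Flk-1+ cells and listed at 0 in all HE1 libraries.

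Cyp26a1, the enzyme that clears retinoic acid, an inducer of anterior Hox genes, fell from Flk-1+ cells to HE1 in both genotypes. It read 35.7, 26 and 34.2 FPKM in WT Flk-1+ cells and 0.435 and 7.74 in WT HE1 (limma adjusted p = 0.00767), and 12.4, 7.19 and 13.6 against 1.33 and 0 in Lmo2-/- (limma adjusted p = 0.00607). It was also lower in all Lmo2-/- and Tal1-/- than in all WT Flk-1+ libraries, without passing (limma adjusted p = 1 and 0.7). Aldh1a2, which makes retinoic acid, was at most 4.36 FPKM in Flk-1+ cells and listed at 0 in HE1. Of the 10 chromatin regulators, which include Polycomb and Kmt2a complexes that hold Hox clusters off or on, Cbx2 was higher in Lmo2-/- than in WT HE1 (30.5 and 34.6 against 11.1 and 6.97 FPKM, limma adjusted p = 0.0215), and no other was called in any comparison.

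**Figure D5:**
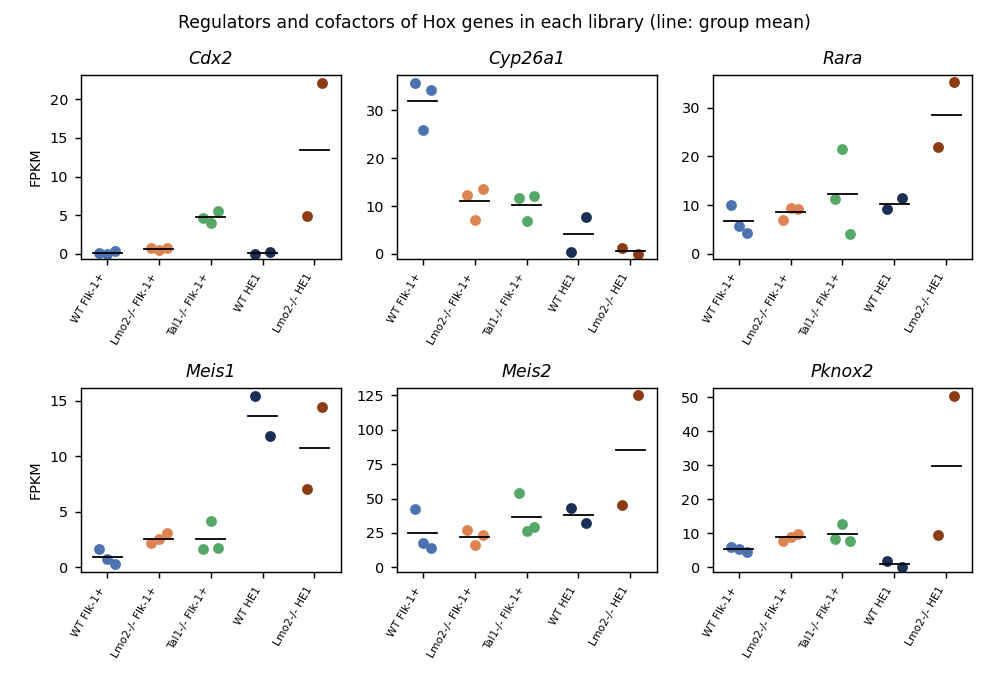
FPKM of 6 regulators and cofactors in every library (points) by group, with the group mean as a line and a vertical scale for each gene. Cdx2 is high in Tal1-/- Flk-1+ and Lmo2-/- HE1 libraries, Cyp26a1 is highest in WT Flk-1+ and Meis1 is highest in HE1.

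Some markers of other cell types differed between the genotypes in HE1. Of the 8 fibroblast genes, 7 were tested. In Lmo2-/- against WT HE1, 4 of them were higher (Col1a1, Col3a1, Postn and Lum), beside 2.88 percent of all genes tested. Lum passed the filter on low values only through the 2 Lmo2-/- HE1 libraries, so it had to differ. The 8 genes summed to 192 and 763 against 35.7 and 29.2 FPKM. Dcn was at most 0.987 FPKM and Thy1 was listed at 0 in all HE1 libraries. The 4 smooth muscle genes summed to 330 and 840 against 219 and 184 FPKM, with none of them called between the genotypes. Most of this was Acta2 (263 and 816 against 165 and 114 FPKM). On the log2(FPKM + 1) scale Acta2 and Cnn1 differed by 1.75 and 0.27, and Tagln and Myl9 by -0.45 and -1.58. The median of the 4 was -0.09, so the sum does not speak for the set. Hand1, of extraembryonic mesoderm, and Pdgfra were also higher (117 and 210 against 17.7 and 2.96 FPKM, and 37.3 and 94.5 against 2.98 and 1.01). Each was the only member of its list that was called. Tbx4, listed with Hand1, read 2.4 and 0.304 against 0 and 0.437 FPKM. Of the haemangioblast markers listed with Pdgfra, Kdr and Etv2 differed by -0.68 and -1.49, and T was listed at 0. The paraxial mesoderm markers summed to at most 0.52 FPKM in HE1, and both pluripotency markers were listed at 0 there. In these bulk libraries more cells of another type and more RNA per cell cannot be told apart, and the part of such cells in the Hox values was not tested.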

How the data were processed

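RNAseq libraries from polyadenylated RNA were made and sequenced by the authors, who aligned reads with TopHat2 2.0.9 to mm10, assembled transcripts with Cufflinks 2.0.0 (per the methods, with quartile normalisation and effective length correction) and computed the FPKM of each library with Cuffnorm. The deposited values are FPKM per gene and library, and values below 1 rest on few fragments. Pooled FPKM per group were used for Hoxc6 alone, and the deposited fold changes, p and q values from Cuffdiff 2.0.1 were not used. Values were tested as log2(FPKM + 1), which understates differences of low genes, with limma 3.58.1 (R 4.3.3, mean-variance trend, all 13 libraries in 1 fit). Genes that reached 1 FPKM in 2 or more libraries entered the test unless their locus spanned 200 bases or less, and p values were adjusted by Benjamini-Hochberg over the 13802 genes tested. The step was tested on simulated data. Exact permutation tests used scipy 1.17.1. Fragments were estimated from the steps of the FPKM values with transcript lengths less 140 bases. For members with 1 transcript, 31 of 32 values above 0 lay within 0.1 of a whole number, and for others the number depends on the transcript assumed. Gene positions were from GENCODE on GRCm38, and promoters from RefSeq. Hox genes with a mean of at least 5 FPKM in a group, or called, are given by library. The members, gene lists and tests were chosen with earlier results of these data known. Alternatives changed the pseudocount, filter, normalisation, variance model, libraries, pairing and call rule. Results of some genes are not reported here, though counts and sums include them.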

Additional observations from a re-analysis of the deposited data

How the results depend on the processing

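The 14 called differences of Hox rows were refitted under the alternatives, which gave 287 fits. In 225 of these fits the direction and the call were kept, in 62 the direction only, and none reversed. Alternatives in which a row no longer passed the filter on low values are not among the 287. Hoxc4, Hoxc8 and the Hoxd3/Hoxd4 row left the test with a filter at 10 FPKM. They also left it without 1 of the 2 libraries where they were high, which lowers the counts with a library left out. The 3 Flk-1+ genotype comparisons called no Hox row under any alternative run. For Lmo2-/- against WT in HE1, 5 rows became 3 with a pseudocount of 0.1, 2 with quantile normalisation, 1 at a common median and 0 with array weights, with only the libraries compared, with a filter at 10 FPKM, or with a mean above 10 FPKM required. Leaving out 1 library gave 0 to 8. The step to HE1 in WT (4 rows) gave 1 with the filter at 10 FPKM, 0 with the mean above 10 FPKM, and 0 to 5 with 1 library left out. In Lmo2-/- (5 rows) the numbers were 3 with that filter, 3 with only the libraries compared, 1 with that mean, and 3 to 6. The interaction (0 rows) gave 1 with no filter and 0 to 7 with 1 library left out. The causes were not tested.

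With the replicate number as a block, Lmo2-/- against WT in HE1 called 3 rows in place of 5, and the other counts stayed within 1.5 times. Correlations of same-numbered libraries did not all exceed 0.1 for any pair of groups. They were -0.177, -0.184 and -0.0147 for WT and Lmo2-/- Flk-1+, 0.169, 0.0741 and 0.107 for WT and Tal1-/- Flk-1+, and -0.0495 in HE1. With 2 or 3 libraries a group, such values cannot tell whether same-numbered libraries share a batch. At a common median, mean summed FPKM went from 8.09 to 9.54 for anterior rows in WT Flk-1+, from 11.2 to 13.3 in Lmo2-/- Flk-1+ and from 11.6 to 7.05 in Lmo2-/- HE1. Central rows in WT HE1 went from 15.6 to 13.1, posterior rows in Lmo2-/- HE1 from 14.0 to 8.11, Hoxb in WT Flk-1+ from 7.13 to 8.44 and Hoxd in WT HE1 from 5.31 to 4.46. With 2 or 3 libraries a group and Hox levels of few fragments, small differences were not detectable.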

Other observations

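Other transcripts lie within the Hox clusters. Of 33 such rows, 26 were listed at 0 in every library and 6 reached 1 FPKM in at least 2 libraries. The row that joins Hotairm1, a noncoding RNA at the anterior end of Hoxa, with 4 predicted genes read 26.5 FPKM in Lmo2-/- Flk-1+ replicate 0, 1.21 FPKM in WT HE1 replicate 0, 0.359 FPKM in WT Flk-1+ replicate 1 and 0 elsewhere. Gm11539, a processed pseudogene in Hoxb whose reads may belong to its parent gene, read 2.7, 10.4 and 4.67 FPKM in WT, 2.59, 21.8 and 4.89 in Lmo2-/- and 9.97, 14.8 and 16.1 in Tal1-/- Flk-1+ cells. It read 1.64 and 2.22 FPKM in WT HE1 and 0 in both Lmo2-/- HE1 libraries. Gm53, a noncoding RNA in Hoxb, read 4.89 and 0.89 FPKM in WT HE1, 11.4 and 0 in Lmo2-/- HE1 and 1.49 in Tal1-/- Flk-1+ replicate 1. These are values only, and no test was made of them.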
